A study of Mus musculus with 12 samples.

Results

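Macrophage activation state genes were read in the aorta of mice under a challenge that leads to aortic dissection, with and without rapamycin. The 9 members were Nos2, Chi3l3, Retnla, Mrc1, Cd163, Lyve1, Trem2, Gpnmb and Ly6c2. They were chosen by name among the 34797 gene names on the array, and 8 of the 9 had a probe of that name. No spot carried the name Ly6c2 or either of its RefSeq accessions, so Ly6c2 was not analysed here. RNA from male C57BL/6J mice aged 11 to 14 weeks was taken on day 3, from a 10 mm piece of the aorta, and hybridised to 1-colour arrays, with 3 samples in each of 4 groups. DMSO mice carry a treatment label that names only dimethylsulfoxide, by the study's methods the vehicle, given by daily intraperitoneal injection. Their titles begin with Pre, so whether these mice, the baseline of 2 comparisons, were treated with vehicle or taken before the challenge cannot be settled from the labels. Rapamycin mice received 2 mg/kg/day of rapamycin, an inhibitor of the kinase mTOR, in the same vehicle. BA+DMSO mice received vehicle injections and, from osmotic minipumps, angiotensin II (AngII, 1 µg/kg/min) together with the lysyl oxidase inhibitor β-aminopropionitrile (BAPN) at 150 mg/kg/day. BA+rapamycin mice received BAPN and AngII with rapamycin. The labels name no transgene or deletion. By the study's methods rapamycin was given in vehicle, which the labels of the rapamycin groups do not name. The challenge is a chemical model in which the whole animal is exposed, and whole aortic tissue was read, not sorted macrophages.

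Macrophages take on different programs with the signals around them. Interferon gamma and microbial products induce Nos2, which makes nitric oxide from arginine, while the cytokines IL-4 and IL-13 act through STAT6 to induce the secreted proteins Chi3l3 and Retnla. Resident macrophages of the vessel wall and other tissues carry the scavenger and endocytic receptors Mrc1, Cd163 and Lyve1, and macrophages that take up lipid and cell debris express Trem2 and Gpnmb.

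Levels are given on a log2 scale as the difference from the 75th percentile of the same array, so a level of 0 equals that percentile, and no probe's level was ranked against another's. Where a member is read against a list, or a list is summed, the same probes were used on every array. In whole tissue, fewer cells of a type and less RNA per cell cannot be told apart. All 10 smooth muscle markers were tested, and their median level lay between 5.47 and 7.28 on the 12 arrays, so the labelled tissue carried its markers on every array. The 75th percentile of processed signal was 247 to 314 in DMSO and 287 to 376 in rapamycin, against 81.0 to 121 in BA+rapamycin and 85.4 to 282 in BA+DMSO, so the challenged arrays were mostly dimmer. DMSO arrays lay on slide 1 with rapamycin replicate 1, and the other 8 arrays lay on slide 2, so the challenge and the slide cannot be told apart between BA+DMSO and DMSO. A member with no signal over background has a higher scaled level on a dim array: the Cd163 spot gave a processed signal of 6.12 on BA+DMSO replicate 2 and of 6.04 on DMSO replicate 3, at log2 levels of -3.67 and -5.20. Leaving out BA+DMSO replicate 2, the dimmest array of its group, took the probes called between BA+rapamycin and BA+DMSO from 78 to 11151, and member counts that move without it are given beside the results. Nothing in the labels says outright that the samples of a group came from separate mice, and p-values then measure only the spread between these samples.

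The probes are 60 bases long, and the first 30 bases of 4 probes are shown to identify what was hybridised. Positions are those of the array files on the mouse build mm9.
Nos2, 11:78773567-78773626, plus strand: caccatgccgccgctctaatacttagctgc
Retnla, 16:48844447-48844506, plus strand: gatgaatctaacaaaaactgcagtctcaat
Chi3l3, 3:105950485-105950544, minus strand: tgaacatcttttgcttcctgtaaaaccacc
Trem2, 17:48491537-48491596, plus strand: acagctggatggttgtctgtcaacttctgc
No mm9 gene annotation was used, so the exon or untranslated region under each probe is not given. The other probes lay at 2:14253273-14253332 on the plus strand (Mrc1), 6:124270436-124270495 on the plus strand (Cd163), 7:117994171-117994230 on the minus strand (Lyve1) and 6:49006386-49006445 on the plus strand (Gpnmb). Nos2 had 2 spots per array, which were averaged, and every other member had 1.

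**Figure D1:**
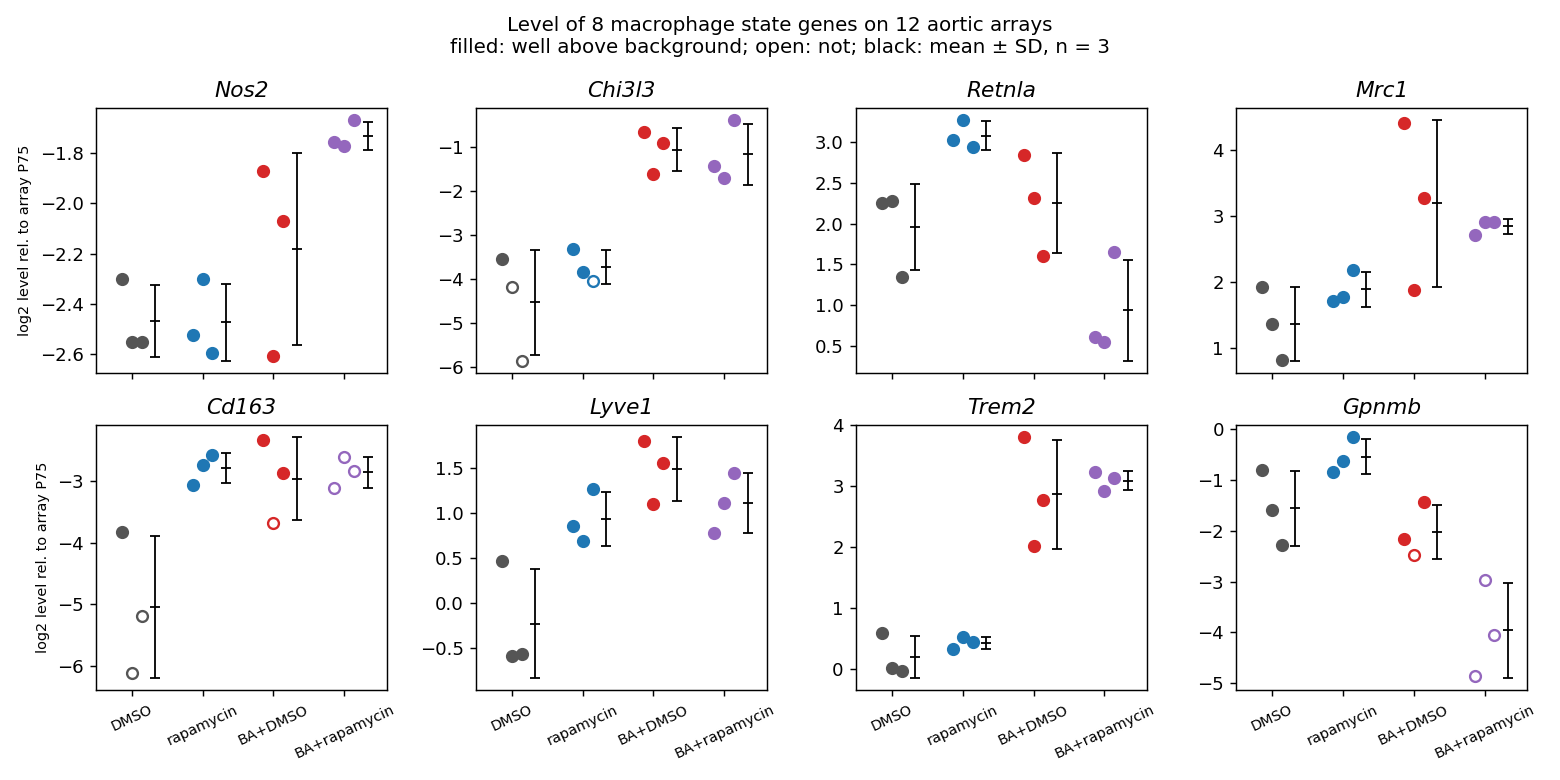
Log2 level relative to the 75th percentile of the array (y axis) of 8 members in DMSO, rapamycin, BA+DMSO and BA+rapamycin (x axis), 1 point per array; filled points were well above background, open points were not, and black bars give the mean and SD of 3 arrays. Chi3l3 is filled on all 6 challenged arrays, while Cd163 and Gpnmb are open on all 3 BA+rapamycin arrays.

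The limma test called 5 of the 8 members higher, Chi3l3, Trem2, Cd163, Mrc1 and Lyve1, and none lower in BA+DMSO against DMSO (adjusted p under 0.05). Cd163 was well above background on only 3 of those 6 arrays, so its call is a fitted one. Over all 27801 probes tested, 9.65% were called higher and 20.5% were called in either direction. With slide as a fixed block, a fit that links the slides through rapamycin replicate 1 alone, the 5 differences were 1.55 to 4.11 and none was called (adjusted p = 0.191 to 0.586), with 15 probes called in all. With array weights, whose estimation did not converge, the 5 differences were 1.49 to 3.37. None was called there either (adjusted p = 0.0586 for Trem2 to 0.621 for Cd163), with 0.403% of all probes called. Without BA+DMSO replicate 2, Nos2 joined the 5 (adjusted p = 0.0307), with 27.9% of all probes called. Without DMSO replicate 2, DMSO replicate 3 or BA+DMSO replicate 1 the count was 3, since Mrc1 and Cd163 were then not called. Under rapamycin the challenge raised Trem2, Chi3l3 and Nos2 and lowered Retnla and Gpnmb, against 18.9% of all probes called higher and 22.9% called lower. Chi3l3 passed the filter on dim probes only through the challenged groups, Cd163 only through rapamycin and Gpnmb only through the unchallenged groups, so these had to differ between some groups and the counts over members are a description. The groups did not overlap for 4 members in the first comparison and 6 in the second, against 34.6% and 65.9% of all probes. The rule in the study's methods, a p under 0.01 with a log2 difference over 2 in size, was applied here to the unadjusted limma p. In these comparisons it called 3 and 4 members, against 2.51% and 5.14% of all probes.

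Rapamycin changed no member by the limma test, either under challenge or alone. Of all probes tested, 0.281% were called in BA+rapamycin against BA+DMSO, 0.0036% in rapamycin against DMSO and 0% for the difference between these 2 effects (the interaction). At an unadjusted p under 0.05, limma gave 3 members under challenge, Nos2, Retnla and Gpnmb (20.1% of all probes), 3 alone, Retnla, Cd163 and Lyve1 (4.27%), and 4 for the interaction, Retnla, Cd163, Lyve1 and Gpnmb (6.12%). The groups did not overlap for Nos2 and Gpnmb under challenge (14.5% of all probes) and for Retnla, Cd163 and Lyve1 alone (21.5%). The rule in the study's methods called none under challenge (0.173% of all probes), Cd163 alone (0.0216%) and Retnla and Gpnmb for the interaction (0.212%). Cd163 passed the filter on dim probes only through rapamycin and Gpnmb only through the unchallenged groups, and no BA+rapamycin array measured either. Their entries in these counts are therefore a description. Without BA+DMSO replicate 2, limma called 2 members under challenge, Retnla and Gpnmb, both lower, but 39.5% of all probes were then called.

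**Figure D2:**
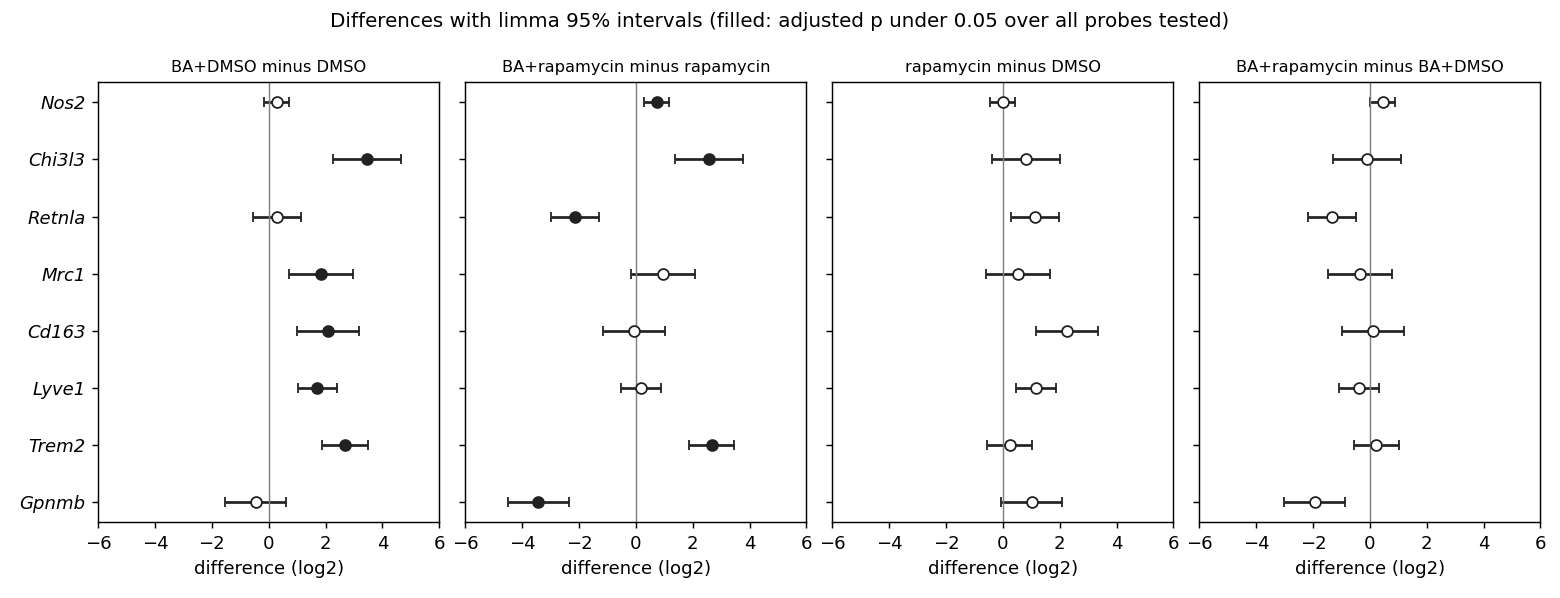
Difference in log2 level (x axis) with its limma 95% interval for 8 members (y axis) in 4 comparisons, 1 panel each; filled points had an adjusted p under 0.05 over all probes tested. In the 2 challenge panels Chi3l3 and Trem2 lie to the right of 0, and Retnla lies to the left only in the panel with rapamycin. Gpnmb lies to the left in both, at -0.46 and -3.43, with the second taken against arrays that were not well above background.

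Nos2, the inducible nitric oxide synthase, moved little. Its log2 levels were -2.30, -2.55 and -2.55 in DMSO, -2.52, -2.30 and -2.59 in rapamycin, -1.87, -2.61 and -2.07 in BA+DMSO and -1.75, -1.77 and -1.67 in BA+rapamycin. The BA+rapamycin arrays lay above every other array, while BA+DMSO reached from below the unchallenged arrays to above them. Nos2 was 0.74 ± 0.20 higher in BA+rapamycin than in rapamycin (1.67-fold, adjusted p = 0.0145), and it differed by 0.29 ± 0.20 between BA+DMSO and DMSO (adjusted p = 0.332). Both of its spots were dim, and their processed signals differed by 1.06-fold to 3.79-fold on the same array, with the largest gap on BA+DMSO replicate 2, where only 1 spot was well above background. On the 6 arrays behind the called rise the gap was 1.09-fold to 1.22-fold on 5 and 2.25-fold on BA+rapamycin replicate 1. The call of Nos2 was lost with quantile normalization (0.43, adjusted p = 0.177), with the deposited value table (0.44, adjusted p = 0.177), on the arrays of slide 2 alone (0.72, adjusted p = 0.109) and without rapamycin replicate 3 (0.68, adjusted p = 0.0600).

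The secreted members Chi3l3 and Retnla parted under the challenge. Chi3l3 (current symbol Chil3, also called Ym1), a chitinase-like protein that binds sugars and lacks chitinase activity, was at log2 levels of -3.54, -4.19 and -5.86 in DMSO and -3.31, -3.84 and -4.04 in rapamycin. In the challenged groups it was at -0.66, -1.60 and -0.91 in BA+DMSO and at -1.42, -1.69 and -0.37 in BA+rapamycin. Every challenged array lay above every unchallenged array. The probe was well above background on 1 DMSO array, 2 rapamycin arrays and all 6 challenged arrays. Chi3l3 was 3.47 ± 0.54 higher in BA+DMSO than in DMSO (adjusted p = 0.00217, and 0.00480 with no filter on dim probes), at least 6.42-fold with the 2 DMSO arrays that were not well above background at their detection limit, and 2.57 ± 0.54 higher in BA+rapamycin than in rapamycin (adjusted p = 0.00516). With normexp these differences were 1.44 (adjusted p = 0.000359) and 1.53 (adjusted p = 0.000143). The 2 challenged groups overlapped, and their difference was -0.10 with a 95% interval from -1.30 to 1.09.

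Retnla, a small secreted protein also called RELMα or Fizz1, was bright on every array. Its log2 levels were 2.25, 2.28 and 1.34 in DMSO, 3.03, 3.28 and 2.94 in rapamycin, 2.84, 2.31 and 1.61 in BA+DMSO and 0.61, 0.55 and 1.65 in BA+rapamycin. The rapamycin arrays were the highest and 2 of the BA+rapamycin arrays the lowest, and the DMSO and BA+DMSO arrays overlapped. Retnla fell by 2.15 ± 0.38 in BA+rapamycin against rapamycin (4.43-fold lower, adjusted p = 0.00242), with a value of -2.17 on slide 2 alone (adjusted p = 0.0291), and it differed by 0.29 ± 0.38 between BA+DMSO and DMSO (adjusted p = 0.623). Retnla was 1.12 ± 0.38 higher in rapamycin than in DMSO, with no overlap (adjusted p = 0.964, and 0.0443 with array weights, whose estimation did not converge), while BA+rapamycin minus BA+DMSO was -1.32 ± 0.38, with 1 array of each group overlapping (adjusted p = 0.132). The difference between these 2 effects was -2.44 ± 0.54 (adjusted p = 0.494), and -2.41 without BA+DMSO replicate 2 (adjusted p = 0.0422, against 10.4% of all probes called in that fit).

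The promoters of these 2 genes and of Gpnmb are shown because Chi3l3 and Retnla share an inducer yet moved differently. Gpnmb is included because it and Retnla were both called lower in BA+rapamycin against rapamycin, though no BA+rapamycin array measured Gpnmb. RefSeq windows on the build GRCm38.p6 were found for 7 of the 9 members, and the 250 bases before the annotated start are printed on the strand of the gene, 5′ to 3′. Capitals mark matches, on either strand, to STAT6 (TTC and GAA with 4 bases between), AP-1 (TGACTCA), the E-box CACGTG, PU.1 (GAGGAAG) or the TATA box (TATAAA), motifs chosen by hand.
Retnla, 16:48842359-48842608, plus strand: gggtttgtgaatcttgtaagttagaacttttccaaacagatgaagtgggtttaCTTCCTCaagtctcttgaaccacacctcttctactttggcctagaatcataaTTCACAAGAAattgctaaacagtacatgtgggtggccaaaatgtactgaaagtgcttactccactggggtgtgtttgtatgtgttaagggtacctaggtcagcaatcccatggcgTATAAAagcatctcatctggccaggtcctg
Chi3l3 (Chil3), 3:106167565-106167814, minus strand: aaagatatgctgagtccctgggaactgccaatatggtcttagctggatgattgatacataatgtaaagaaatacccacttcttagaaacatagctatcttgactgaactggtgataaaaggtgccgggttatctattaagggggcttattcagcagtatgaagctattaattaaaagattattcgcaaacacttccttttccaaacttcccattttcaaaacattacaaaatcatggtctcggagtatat
Gpnmb, 6:49036268-49036517, plus strand: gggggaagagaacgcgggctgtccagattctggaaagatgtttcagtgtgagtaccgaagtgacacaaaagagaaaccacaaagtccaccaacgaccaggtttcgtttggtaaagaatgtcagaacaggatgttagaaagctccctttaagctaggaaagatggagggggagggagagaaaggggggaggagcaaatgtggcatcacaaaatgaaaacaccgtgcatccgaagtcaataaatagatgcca
The Retnla window held 1 match each to the STAT6, PU.1 and TATA letters, and the Chi3l3 and Gpnmb windows held none of the 5 motifs. Of all 32851 windows of this length, 5.85% held the STAT6 letters, 4.46% AP-1, 6.02% the E-box, 10.6% PU.1 and 12.4% the TATA box. Mrc1 and Trem2 had PU.1 letters in their windows, with 2 matches and 1 match, the 2 windows of Ly6c2 held 1 and 2 such matches, and Cd163 held none of the 5 motifs. A match is a description of the letters, not a binding site.

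Among the receptors of resident macrophages, Mrc1 and Lyve1 rose with the challenge under vehicle, and Cd163 was called higher on arrays that measured it only in part. None of them passed the test for the challenge under rapamycin, and the test of the difference between the effects of the challenge gave adjusted p = 0.737 for Mrc1, 0.734 for Cd163 and 0.613 for Lyve1, so these effects are not shown to differ. Mrc1, the mannose receptor CD206, was at log2 levels of 1.92, 1.35 and 0.81 in DMSO, 1.70, 1.76 and 2.18 in rapamycin, 4.41, 1.88 and 3.27 in BA+DMSO and 2.71, 2.90 and 2.90 in BA+rapamycin. BA+DMSO replicate 2 lay within the range of the unchallenged arrays. Mrc1 was 1.83 ± 0.51 higher in BA+DMSO than in DMSO (3.55-fold, adjusted p = 0.0289), and the difference was 1.21 without BA+DMSO replicate 1 (adjusted p = 0.0867). It was not called with no filter on dim probes (adjusted p = 0.0538), with only the arrays of the groups compared (adjusted p = 0.135) or with array weights, whose estimation did not converge (1.49, adjusted p = 0.479). In BA+rapamycin it was 0.96 ± 0.51 higher than in rapamycin with no overlap (adjusted p = 0.147), and it was called without BA+DMSO replicate 2 (adjusted p = 0.0324, with 56.8% of all probes called), with only the arrays of the groups compared (adjusted p = 0.00370, with 56.4%) and with the same array weights (1.04, adjusted p = 0.00363, with 65.7%).

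Lyve1, a hyaluronan receptor of resident macrophages and lymphatic endothelium, was at log2 levels of 0.47, -0.59 and -0.56 in DMSO and 0.86, 0.69 and 1.27 in rapamycin. In BA+DMSO it was at 1.80, 1.11 and 1.56, and in BA+rapamycin at 0.78, 1.11 and 1.44. The DMSO arrays lay below all others, and the remaining 3 groups overlapped. Lyve1 was 1.71 ± 0.32 higher in BA+DMSO than in DMSO (3.28-fold, adjusted p = 0.00472) and 0.17 ± 0.32 higher in BA+rapamycin than in rapamycin (adjusted p = 0.671, 95% interval -0.52 to 0.87). The first difference was 1.74 with array weights, whose estimation did not converge, and was then not called (adjusted p = 0.464). In rapamycin alone it was 1.16 ± 0.32 above DMSO (adjusted p = 0.688, and 0.0230 with array weights). The difference between the effect of rapamycin under challenge and alone was -1.54 ± 0.45 (adjusted p = 0.613), and -1.73 without BA+DMSO replicate 2 (adjusted p = 0.0449). Of 10 listed lymphatic markers 5 were tested, and Prox1 and Flt4, which define lymphatic endothelium, were not among them because they did not pass the filter on dim probes. The summed linear level of the 5 was 21.2 to 26.7 in DMSO, 26.4 to 31.9 in rapamycin, 83.3 to 100.5 in BA+rapamycin and 49.98 to 92.95 in BA+DMSO, with Thy1 and Pdpn, which fibroblasts also express, called higher in both challenge comparisons. Of the 5, 3 were higher in each of these comparisons, with medians of 1.05 and 0.04, and Sema3d was lower in both. The part of lymphatic cells in the level of Lyve1 was not tested.

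Cd163, the scavenger receptor for haemoglobin bound to haptoglobin, was dim. Its log2 levels were -3.82, -6.12 and -5.20 in DMSO, -3.05, -2.74 and -2.57 in rapamycin, -2.33, -3.67 and -2.86 in BA+DMSO and -3.11, -2.60 and -2.83 in BA+rapamycin. The probe was well above background on 1 DMSO array, all 3 rapamycin arrays, 2 BA+DMSO arrays and no BA+rapamycin array, so its level in BA+rapamycin has only a bound. The rapamycin arrays lay above the DMSO arrays. The fitted difference of Cd163 between BA+DMSO and DMSO was 2.09 ± 0.50 (adjusted p = 0.0157), and 0.93 with normexp (adjusted p = 0.00380). It is no measured change and no fold is given, since 2 DMSO arrays and 1 BA+DMSO array were not well above background, and the part of array brightness in it was not tested. The call was lost with only the arrays of the groups compared (adjusted p = 0.0978), with array weights (adjusted p = 0.621), without DMSO replicate 2, where the difference was 1.55 (adjusted p = 0.0642), without DMSO replicate 3 (adjusted p = 0.0533) and without BA+DMSO replicate 1 (adjusted p = 0.0644). The fitted difference between rapamycin and DMSO was 2.26 ± 0.50, with no overlap (adjusted p = 0.523, and 0.0136 with array weights, which did not converge and called 5.44% of all probes), at least 2.07-fold with the 2 DMSO arrays that were not well above background at their detection limit. No fold can be given for BA+rapamycin against rapamycin, where the fitted difference was -0.06, and a normexp background correction turned it to 0.66 (adjusted p = 0.00875).

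Of Trem2 and Gpnmb, both markers of macrophages that handle lipid and debris, only Trem2 was called higher with the challenge. Trem2, a lipid-sensing receptor that signals through the adaptor Tyrobp, was at log2 levels of 0.58, 0.01 and -0.03 in DMSO and 0.32, 0.52 and 0.44 in rapamycin. It was at 3.81, 2.02 and 2.77 in BA+DMSO and at 3.23, 2.92 and 3.13 in BA+rapamycin, so every challenged array was well clear of every unchallenged array. Trem2 was 2.68 ± 0.36 higher in BA+DMSO than in DMSO (6.40-fold, adjusted p = 0.00109) and 2.67 ± 0.36 higher in BA+rapamycin than in rapamycin (6.35-fold, adjusted p = 0.000693), with 2.61 on slide 2 alone (adjusted p = 0.0186). The challenge effects with and without rapamycin differed by -0.01, with a 95% interval from -1.14 to 1.12. The sign of that difference turned with quantile normalization, to 0.12.

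Gpnmb, a transmembrane glycoprotein of phagocytic macrophages, osteoclasts and melanocytes, was at log2 levels of -0.81, -1.58 and -2.27 in DMSO and -0.84, -0.62 and -0.15 in rapamycin. In BA+DMSO it was at -2.15, -2.47 and -1.43, and in BA+rapamycin at -4.85, -2.97 and -4.06. The probe was well above background on all 6 unchallenged arrays, on 2 BA+DMSO arrays and on no BA+rapamycin array. The BA+rapamycin arrays lay below all others, and DMSO overlapped both rapamycin and BA+DMSO. In BA+rapamycin against rapamycin Gpnmb was at least 4.47-fold lower on the scaled signals, with BA+rapamycin at its detection limit. The fitted difference was -3.43 ± 0.49 (adjusted p = 0.000846, and 0.00190 with no filter on dim probes), -3.58 on slide 2 alone (adjusted p = 0.0121) and -0.88 with normexp (adjusted p = 0.00505), so the size depends on the background correction. The BA+rapamycin arrays are among the dimmest, and the part of that in the loss of detection was not tested beyond this bound. Against BA+DMSO the difference was -1.94 ± 0.49 (adjusted p = 0.1003), with no fold given since 1 BA+DMSO array was not well above background either, and -2.17 without BA+DMSO replicate 2 (adjusted p = 0.0150). With the date in the titles as a random block the difference was -2.24 and was called (adjusted p = 0.0425, against 1.65% of all probes). BA+DMSO and DMSO differed by -0.46 ± 0.49 (adjusted p = 0.531), and rapamycin and DMSO by 1.02 ± 0.49 (adjusted p = 1). The fitted difference between the 2 rapamycin effects, which rests on the same arrays, was -2.96 ± 0.69 (adjusted p = 0.494) and -3.19 without BA+DMSO replicate 2 (adjusted p = 0.0385). Of 10 listed melanocyte markers 4 were tested, with a summed linear level of 6.08 to 7.18 in DMSO, 5.97 to 7.89 in rapamycin, 2.52 to 3.33 in BA+rapamycin and 2.89 to 4.23 in BA+DMSO, and Mitf was called lower in both challenge comparisons (differences of -1.13 and -1.33). Of the 4, 2 were higher in BA+DMSO than in DMSO and 1 was higher in BA+rapamycin than in rapamycin, none of them called. Dct and Tyrp1, which define melanocytes, were not among the markers tested, and of 10 listed osteoclast markers 5 were tested, without Calcr and Dcstamp. The summed linear level of these 5 was 74.3 to 84.5 in DMSO, 74.1 to 77.1 in rapamycin, 72.8 to 94.2 in BA+rapamycin and 68.5 to 96.1 in BA+DMSO, and Acp5 was called higher in BA+DMSO (1.37). Of the 5, 3 were higher in BA+DMSO than in DMSO. The part of these cells in the level of Gpnmb was not tested.

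Macrophage identity genes rose with the challenge, so the members were also read against a list of macrophage identity genes that holds no member. Of its 25 symbols 23 were tested: 21 were called higher and none lower in BA+DMSO against DMSO, with a median difference of 2.30, and 18 were called higher and 1 lower in BA+rapamycin against rapamycin, with a median of 1.62. The medians over all probes tested were -0.04 and -0.08. Cd68 (2.63) and the complement subunit C1qb (2.55) rose in the first and the fractalkine receptor Cx3cr1 (2.71) and the Fc receptor Fcgr1 (2.42) in the second. No gene of the list was called for rapamycin under challenge or alone.

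Each member was then expressed as its log2 level minus the median of these 23 genes on the same array. Trem2 was 0.54 higher in BA+DMSO than in DMSO and 1.19 higher in BA+rapamycin than in rapamycin on this scale, with no overlap in either comparison (two-sided exact permutation p = 0.1 for each, the smallest that 3 against 3 allows). Chi3l3 was 1.33 higher in BA+DMSO than in DMSO as read, but 0.54 higher, with overlap (exact permutation p = 0.2), once the 2 DMSO arrays that were not well above background stood at their detection limit. In BA+rapamycin it was 1.09 higher than in rapamycin with no overlap (exact permutation p = 0.1), also with the 1 such rapamycin array at its limit. Nos2, Retnla and Lyve1 lay lower relative to the list in both, with differences of -1.86 and -0.73 for Nos2, -1.85 and -3.62 for Retnla and -0.43 and -1.30 for Lyve1, and no group overlap (exact permutation p = 0.1 for each). Lyve1 was barely apart in the first, with DMSO replicate 2 at -0.8846 and BA+DMSO replicate 2 at -0.8965. The list itself rose by medians of 2.30 and 1.62, so an unchanged probe would also lie lower on this scale. Before that subtraction Nos2 was 0.29 and 0.74 higher. No share over all probes is given on this scale, so these separations are a description. Gpnmb differed by -2.61 between BA+DMSO and DMSO, also with no overlap (exact permutation p = 0.1), and 2 of 3 BA+DMSO arrays measured it. Mrc1 differed by -0.32 between BA+DMSO and DMSO, where the groups overlapped, and by -0.52 between BA+rapamycin and rapamycin, where they did not. In BA+rapamycin, Cd163 and Gpnmb were not well above background on any array, so no difference on this scale is given for them there, nor for Cd163 between BA+DMSO and DMSO, where 3 of 6 arrays measured it. Between BA+rapamycin and BA+DMSO, Nos2 was 0.80 and Trem2 0.58 higher on this scale with no overlap, and between rapamycin and DMSO, Lyve1 was 0.85 and Gpnmb 0.71 higher with no overlap (exact permutation p = 0.1 for each). Before the subtraction Nos2 was 0.45 and Trem2 0.23 higher in BA+rapamycin than in BA+DMSO. Neither was called, and the groups overlapped for Trem2. Cd163 was 0.74 higher in rapamycin than in DMSO with the 2 DMSO arrays that were not well above background at their detection limit. Chi3l3, Cd163 and Gpnmb passed the filter on dim probes only through groups where they are high. Their separation from the other groups on this scale is therefore a description and supports nothing. Over these 32 comparisons of 8 members no exact test can reach 0.05.

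**Figure D3:**
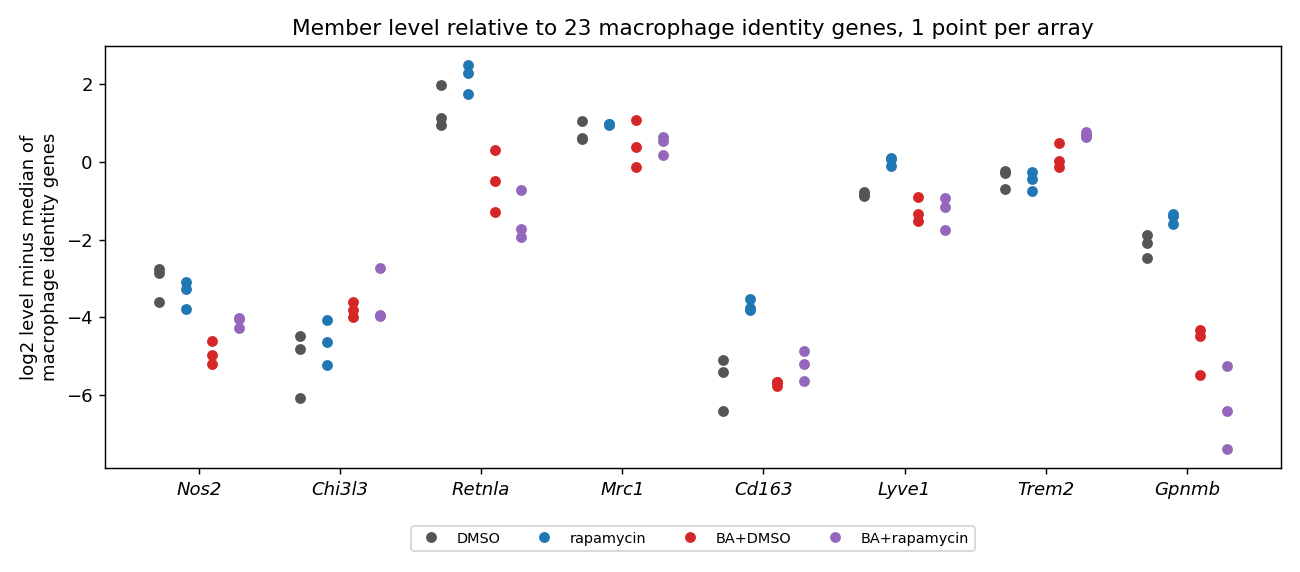
Log2 level of each member minus the median of 23 macrophage identity genes on the same array (y axis) for 8 members (x axis), with 1 point per array and colours for the 4 groups. Trem2 lies higher in each challenged group than in its unchallenged control, while Retnla and Gpnmb lie lower in both challenged groups than in both unchallenged groups, with Gpnmb not well above background in BA+rapamycin.

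Genes of the same pathways were counted from lists that hold no member, and each count is read against all probes tested, of which 9.65% were called higher and 10.8% lower in BA+DMSO against DMSO, and 18.9% and 22.9% in BA+rapamycin against rapamycin. Lists whose shares lie near these are no result about the pathway. Some listed genes passed the filter on dim probes only through groups where they were high, so their entries in these counts are a description. Of 20 listed arginine metabolism genes 17 were tested. Of the 17, 5 were called higher and none lower in BA+DMSO against DMSO, and 7 higher and 3 lower in BA+rapamycin against rapamycin. The medians were 0.19 in both. Ddah1, which clears the inhibitor of nitric oxide synthases, was at least 9.94-fold higher in the first and rose by 2.79 in the second, and Gatm, which uses arginine to make the precursor of creatine, rose by 1.98 and 1.47, while Oat, ornithine aminotransferase, fell by 1.54 in the second. Gch1, needed for the cofactor of Nos2, rose by 1.72 in the first. None of these genes was called for rapamycin under challenge.

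Of 20 listed genes of IL-4 and IL-13 signalling, upstream of Chi3l3 and Retnla, 14 were tested. With the challenge 4 were called higher and none lower, and with the challenge under rapamycin 4 higher and 1 lower. The receptor chain Il4ra rose by 2.15 and 2.93, and Stat6 itself fell by 0.60 in the second. The cytokine genes Il4 and Il13 did not pass the filter on dim probes. Of 29 listed alternative activation symbols 16 were tested. Of the 16, 5 were called higher and none lower with the challenge, and 4 higher and 1 lower under rapamycin. Ccl17 was at least 3.54-fold higher with the challenge. Of 20 listed interferon gamma signalling genes, upstream of Nos2, 17 were tested. With the challenge 2 rose (Irf8 by 1.57 and Psmb8 by 1.15) and 1 fell (Jak2 by 0.79). Under rapamycin 4 rose and 2 fell, so the counts of this list lie close to the shares over all probes. Of 30 listed classical activation symbols 29 were on the array and 17 were tested, and Il1b and Tnf were not among those tested. Of the 17, 8 were called higher with the challenge and 10 under rapamycin, and none lower in either. Among these were the chemokine Ccl2 (5.17 and 4.88) and the acute phase protein Saa3 (at least 8.12-fold higher in the first, 5.09 in the second). The cytokine Il6 was called higher in both, with no fold given for BA+DMSO, where 2 of 3 arrays measured it, and was at least 104-fold higher in BA+rapamycin than in rapamycin. Il6, Saa3 and Ccl17 passed the filter on dim probes only through challenged groups. They had to differ between some groups, so their calls and folds are a description.

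Of 27 listed resident adventitial genes, which accompany Mrc1, Cd163 and Lyve1, 24 were tested. Of the 24, 13 were called higher and none lower with the challenge, and 7 were called higher and 3 lower under rapamycin. The shares over all probes were 9.65% and 10.8% with the challenge, and 18.9% and 22.9% under rapamycin. Cd209f, a lectin of resident macrophages, was the only gene of all these lists called for rapamycin under challenge, at 2.06 log2 units lower (difference -2.06 ± 0.30, adjusted p = 0.0231). Of 25 listed lipid and phagocytic state genes, the company of Trem2 and Gpnmb, 21 were tested. Of the 21, 9 were called higher and none lower with the challenge, and 8 higher and 2 lower under rapamycin. Osteopontin, Spp1, was at least 24.4-fold and 43.4-fold higher. It passed the filter on dim probes only through the challenged groups, so these folds are a description. Of 21 listed monocyte genes, which stand in here for the class that Ly6c2 marks, 18 were tested. Of the 18, 14 were called higher and 1 lower in each challenge comparison, with the chemokine receptor Ccr2 at 3.04 and 4.28.

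Other cells that can carry these transcripts were counted too, and their counts are read against the same shares of all probes. Of 17 neutrophil markers 7 were tested and 3 were called higher in each challenge comparison, with summed linear levels of 207 to 258 in DMSO, 203 to 243 in rapamycin, 506 to 659 in BA+rapamycin and 157 to 604 in BA+DMSO. Of 12 eosinophil markers 4 were tested, all ribonucleases of the Ear family, which macrophages also express, and 3 and 2 of them were called higher. The call of Ear1 under rapamycin is no measured rise, since no BA+rapamycin array was well above background for it. The summed level of the 4 was 0.23 to 0.50 in DMSO, 0.34 to 0.40 in rapamycin, 0.70 to 1.14 in BA+rapamycin and 1.60 to 3.85 in BA+DMSO, and Epx, Prg2 and Siglecf, which define eosinophils, were not among those tested. All 10 mesothelium markers were tested, and 6 were called higher with the challenge and none under rapamycin, with summed levels of 12.65 to 24.1 in DMSO, 18.4 to 22.0 in rapamycin, 16.5 to 35.2 in BA+rapamycin and 22.6 to 33.96 in BA+DMSO. Their median difference between BA+rapamycin and BA+DMSO, where the mean levels of Retnla and Gpnmb were lower too, was -1.73, with 9 of 10 lower and none called. The 4 Ear genes had a median of -1.61 in that comparison, with 1 of 4 higher and none called. Of 12 adipocyte markers 9 were tested and 1 was called higher in each comparison, Ucp1 (at least 6.47-fold) and Adrb3 (2.24), and their summed level was 26.1 to 40.6 in DMSO, 24.3 to 52.8 in rapamycin, 29.95 to 189 in BA+rapamycin and 40.1 to 165 in BA+DMSO, highest on BA+rapamycin replicate 1 and BA+DMSO replicate 2. Of 12 blood endothelium markers 4 were called higher in each and 2 lower under rapamycin, with summed levels of 149.8 to 163 in DMSO, 179 to 242 in rapamycin, 295 to 399 in BA+rapamycin and 251 to 323 in BA+DMSO. Of the 10 smooth muscle markers 2 were called lower with the challenge, and 3 lower and 1 higher under rapamycin. The part of these cells in the levels of the members was not tested.

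For each member the 3 genes with the most similar pattern were found by Pearson's r over the 12 arrays, as a description over arrays that share groups, slides and brightness. Trem2 ran closest to Cd52, Sdc3 and Lcp1 (r = 0.995, 0.993 and 0.993), Mrc1 to Eps8, Cmtm3 and F13a1 (0.983, 0.982 and 0.978) and Chi3l3 to Bst1, Dmkn and Mpeg1 (0.978, 0.963 and 0.963). Nos2 ran closest to Rplp0, Rpl38 and Rps19-ps4 (0.961, 0.947 and 0.942). Cd163 ran closest to another member, Lyve1, followed by Cd37 and Ly6c1 (0.908, 0.892 and 0.890), and Lyve1 to Tmem37, Sla and Nfatc2 (0.946, 0.944 and 0.930). Retnla ran closest to Cpz, Rnf130 and Ptpn13 (0.918, 0.912 and 0.911) and Gpnmb to Abi2, Aff2 and Plekhh2 (0.925, 0.923 and 0.921). Cd163 was not well above background on 6 of the 12 arrays, Gpnmb on 4 and Chi3l3 on 3, so their values of r rest in part on unmeasured levels. Between the members measured on all arrays, r was highest for Mrc1 and Trem2, at 0.88, and 0.93 after the group means were taken away. It was lowest for Nos2 and Retnla, at -0.55, and 0.31 after that step.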

How the data were processed

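Aortic RNA of 12 samples was labelled with Cy3 and hybridised to Agilent 1-colour arrays of mouse probes, spread over 2 slides. The software was Feature Extraction 10.7.1.1 per the file headers, while the submitters' processing notes give 9.5.1.1, and probes are placed on mm9. The deposited processed signal is an intensity on a linear scale, with background taken away and no scaling between arrays, and the raw spot and background columns used in an alternative are intensities too. Other deposited columns used were flags scored 0 or 1 (well above background, outlier, control). The deposited value table holds intensities whose scale and normalization the authors do not state; its columns and quantile-normalized processed signals had correlations of at least 0.9999.

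Signals were put on a log2 scale without outlier spots, spots of a probe were averaged, and each array's 75th percentile was subtracted. Of 55681 probes, 6 lacked a value on some array. The 27801 probes that were well above background (a share of 0.5 or more of their spots) on each of the 3 arrays of some group were tested, all 8 measured members among them. The number of arrays limits the precision. One limma 3.58.1 model (R 4.3.3, Python 3) held 4 group means, with two-sided tests, Benjamini-Hochberg adjustment over all probes and calls at an adjusted p under 0.05. Samples were grouped by their treatment labels; titles of DMSO samples begin with Pre. Replicates were numbered in order of deposition. Where a group was not well above background, a fold was bounded by the lowest signal well above background on each of its arrays. The members, gene lists, motifs and tests were chosen with earlier results of these data known. Each listed gene stood by its brightest tested probe, and those named are among the 3 largest called differences of a list and comparison, with the higher group detected on each array, beside defining markers named for their absence, and Gch1 and Stat6, which the same rule gave. A further gene of this class is not reported here. Scripts were tested on simulated data. Alternatives were quantile normalization, another 75th percentile, normexp with an offset of 50, the deposited table, other filters, fewer arrays, slide as a block, title date or title number as a block (an undated array was a block of its own), array weights, the rule in the study's methods (p under 0.01 and a log2 difference over 2 in size) and each array left out.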

Additional observations from a re-analysis of the deposited data

Results flagged for a closer look

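Retnla, Gpnmb, Lyve1 and Mrc1 drew attention because every rapamycin array lay above the DMSO mean while every BA+rapamycin array lay below the BA+DMSO mean. The difference between the rapamycin effect under challenge and alone was -2.44 for Retnla, -2.96 for Gpnmb, -1.54 for Lyve1 and -0.87 for Mrc1 on the log2 scale. The value of Gpnmb rests on BA+rapamycin arrays where it was not well above background, so it is a fitted value and not a measured difference. The limma test of that difference gave adjusted p = 0.494, 0.494, 0.613 and 0.737, so it was not past the threshold for any of them. Without BA+DMSO replicate 2 the first 3 passed it, in a fit that called 10.4% of all probes. Single stray arrays were looked at through array weights and through fits without each array in turn, given below.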

How the results depend on the processing

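The 10 called differences of members kept their direction in all 246 recalculations and their call in 220 of them. The number of members raised by the challenge, 5, became 3 by the rule in the study, 3 with only the arrays of the groups compared, 3 where only probes detected on all arrays were kept, since 5 members then remained, 0 with slide as a fixed block and 0 with array weights, whose estimation did not converge. It was 3 to 6 with arrays left out in turn. For the challenge under rapamycin, 5 became 3 with only probes detected on all arrays and was 4 to 6 with arrays left out. For rapamycin under challenge, none became 0 to 2 with arrays left out (2 without BA+DMSO replicate 2), and 1 with the title date as a random block, an alternative added after the data were seen. For rapamycin alone, none became 1 (Cd163) by the rule in the study and 3 with array weights, where 5.44% of all probes were called, and stayed 0 to 0 with arrays left out. For the interaction, none became 2 by the rule in the study and was 0 to 3 with arrays left out. No paired analysis was possible because replicates were numbered in order of deposition, except through the titles. A replicate block on the number ending each title, added after the data were seen, left out BA+DMSO, which shares no number with the other groups. It gave 0 members for rapamycin alone and 5 for the challenge under rapamycin, as without the block, with 0% and 50.7% of all probes called. Deviations from group means had r of -0.355 to 0.17 between arrays of different groups that share a number, and the same range between those that share a date, so neither is shown to pair the samples. The correlation within a date that the random block used, taken also within groups, was 0.496. Slide as a fixed block rests on rapamycin replicate 1 to link the slides.

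Directions turned only for differences that were not called. With normexp they became 0.0174 (Gpnmb, challenge), 0.0596 (Chi3l3, rapamycin under challenge), -0.0297 (Chi3l3, rapamycin alone), 0.66 (Cd163, challenge under rapamycin), -0.0312 (Lyve1, challenge under rapamycin) and 0.0893 (Chi3l3, interaction). With the 75th percentile over probes detected on all arrays they became 0.0365 (Chi3l3, rapamycin under challenge), 0.0177 (Nos2, rapamycin alone), 0.12 (Cd163, challenge under rapamycin) and 0.11 (Trem2, interaction). With array weights they became -0.17 (Retnla, challenge), 0.27 (Chi3l3) and 0.0229 (Mrc1, both rapamycin under challenge), 0.0265 (Nos2, rapamycin alone) and 0.32 (Trem2, interaction). Quantile normalization gave -0.14 (Cd163, rapamycin under challenge) and 0.12 (Trem2, interaction), and the deposited table -0.14 and 0.12. Nos2 in rapamycin alone became 0.0041 with slide as a random block and 0.10 on arrays whose titles share a date, and the Trem2 interaction 0.0957 with slide as a fixed block. With the title date as a random block they became -0.27 (Cd163) and -0.0199 (Trem2, both rapamycin under challenge), 0.0452 (Nos2, rapamycin alone) and -0.16 (Lyve1, challenge under rapamycin), and with the title number as a replicate block 0.0465 (Nos2, rapamycin alone). With arrays left out, the ranges that crossed 0 were -0.0154 to 0.61 (Retnla, challenge), -0.50 to 0.16 (Chi3l3), -1.005 to 0.26 (Mrc1), -0.25 to 0.42 (Cd163) and -0.20 to 0.70 (Trem2, all rapamycin under challenge), -0.0909 to 0.0782 (Nos2, rapamycin alone), -0.19 to 0.0692 (Cd163, challenge under rapamycin) and -0.43 to 0.46 (Trem2, interaction). The cause of these changes was not tested. Of 448 recalculated differences relative to the macrophage list, 440 moved by less than the spread between replicates. Signal limits Cd163 in DMSO and both challenged groups, Gpnmb in the challenged groups and Chi3l3 in the unchallenged groups.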
